A study of Mus musculus with 10 samples.

Results

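The interferon regulatory factor (IRF) genes Irf1, Irf2, Irf3, Irf4, Irf5, Irf7, Irf8 and Irf9 were followed through the 5 stages of blood cell formation from mouse ES cells. The 8 genes were chosen by name, out of 55487 genes with counts. Of these, 7 were found by symbol in the authors' averaged matrix of 15686 genes. Irf4 is not in that matrix and was found in the count tables by its Ensembl ID.

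Nuclear RNA was sequenced from HM-1 cells, a single mouse ES cell line, and from 4 populations made from them in serum. ES cells were undifferentiated. HB cells are FLK1+ cells, taken with magnetic beads from embryoid bodies at 3 d. After another 2.5 d of blast culture, HE1 cells were sorted by flow cytometry as CD41- TIE2+ KIT+, HE2 cells as CD41+ TIE2+ KIT+, and HP cells as CD41+ KIT+ without TIE2. These 3 populations shared serum, VEGF, IL-6 and medium conditioned by D4T endothelial cells. There were 2 libraries per stage, with 24920434 to 58782055 counts each. The labels do not say how the libraries of a stage relate, and the study describes them as biologically independent replicates. All of them come from a single cell line, and the p-values measure the spread between them.

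IRF proteins share a DNA binding domain that recognises GAAA repeats, the core of the interferon-stimulated response element (ISRE). IRF3 and IRF7 wait in the cytoplasm until sensors of foreign nucleic acid trigger their phosphorylation and then switch on type I interferon genes, while IRF9 works with STAT2 to carry the signal of the interferon receptor to the ISRE. IRF1 is an activator that is itself induced by interferon, and IRF2 competes with it for the same sites. IRF4 and IRF8 bind DNA weakly on their own and act with ETS or AP-1 family partners in lymphoid and myeloid cells, and IRF5 acts below Toll-like receptors in myeloid cells.

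The stretches of promoter that hold such sites are shown first, because Irf1, Irf2 and Irf8 carry matches to elements that interferon signalling and IRF proteins use, and Irf4 and Irf8 carry a TATA box. They are the 230 bases that end 21 bases before the start site, from RefSeq on GRCm38.p6, all on the plus strand: Irf1 at chr11:53769764-53769993, Irf2 at chr8:46739495-46739724, Irf8 at chr8:120736108-120736337 and Irf4 at chr13:30748983-30749212. Capitals mark the interferon-gamma activated site (GAS, TTCNNNGAA, the STAT dimer motif), the ISRE core (GAAA, any 2 bases, GAAA), the ETS-IRF composite element (GGAA, any 2 bases, GAAA) and the TATA box (TATAAA). In Irf2 the first run of capitals is an ETS-IRF match and an ISRE match that overlap.
Irf1: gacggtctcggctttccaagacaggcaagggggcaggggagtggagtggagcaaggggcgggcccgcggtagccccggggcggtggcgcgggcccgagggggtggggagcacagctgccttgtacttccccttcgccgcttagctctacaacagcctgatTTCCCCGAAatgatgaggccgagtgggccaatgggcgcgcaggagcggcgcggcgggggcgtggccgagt
Irf2: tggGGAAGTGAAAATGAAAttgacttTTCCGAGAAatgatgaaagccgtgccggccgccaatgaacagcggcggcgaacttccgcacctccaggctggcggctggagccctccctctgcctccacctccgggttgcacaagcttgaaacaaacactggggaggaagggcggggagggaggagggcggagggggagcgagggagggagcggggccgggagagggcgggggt
Irf8: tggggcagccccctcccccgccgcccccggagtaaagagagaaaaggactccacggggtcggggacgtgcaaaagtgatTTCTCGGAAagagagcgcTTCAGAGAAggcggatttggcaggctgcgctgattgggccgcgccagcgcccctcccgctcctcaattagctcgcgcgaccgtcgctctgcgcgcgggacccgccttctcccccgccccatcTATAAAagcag
Irf4: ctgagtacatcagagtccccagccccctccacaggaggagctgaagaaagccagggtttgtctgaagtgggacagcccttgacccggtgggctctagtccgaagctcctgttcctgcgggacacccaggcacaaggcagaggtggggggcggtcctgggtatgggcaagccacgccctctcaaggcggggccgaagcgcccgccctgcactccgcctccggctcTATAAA

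Both strands were searched for GAS, ISRE and ETS-IRF, and the strand of the gene for TATA, in windows of 300 bases (250 before the start and 50 after it). All 8 genes had a window, and Irf1, Irf8 and Irf9 had 2. A GAS match began 90 bases before the start in Irf1, 224 in Irf2, and 171 and 153 in Irf8. Irf2 alone of the 8 also held an ISRE match, 241 bases before the start, and an ETS-IRF match at 247. TATAAA began 26 bases before the start in Irf4, 29 in Irf7 and 31 in Irf8. Of all 32851 RefSeq promoter windows, 8.30% hold a GAS match, 3.44% an ISRE, 2.72% an ETS-IRF element and 8.32% a TATAAA. Counted per gene, over 27025 genes, the shares are 9.55%, 3.99%, 3.16% and 9.77%. A match describes the letters only.

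RNA of the sort antigens FLK1, CD41 and TIE2 moved with the sorts given below, and that of KIT did so only in part. Pou5f1 was at 549 and 520 CPM (TMM-scaled throughout) in the ES libraries and at most 62.7 later, Kdr (FLK1) at 2.43 and 2.70 in ES and 956 and 1284 in HB, Itga2b (CD41) at 227 and 127 in HE1 and 505 and 469 in HE2, and Tek (TIE2) was at 285 and 159 in HE2 and at 61.5 and 64.1 in HP. The second HE1 library stood apart from the first. Its 5 pluripotency markers summed to 66.9 CPM against 6.31 in the first, and its 6 endothelial markers to 1796 against 2999. The HE2 libraries differed too, with the 6 endothelial markers at 1781 CPM in the first and 964 in the second. In such bulk samples, fewer cells of a type and less RNA per cell cannot be told apart.

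By level per length of exon, the highest member was Irf1 in ES and HB, Irf2 in HE1, and Irf3 in HE2 and HP. In HE1 this rested on the second library, with Irf2 at 7.46 and 10.4 CPM per kb and Irf3 at 7.49 and 6.25. Irf1 held 51.9% of the summed CPM per kb of the 8 genes in ES and 21.1% in HE1, while the share of Irf2 went from 0.777% to 34.4%. The sum itself moved little, from 25.2 ± 0.278 CPM per kb (SD, n = 2) in ES to 22.0 ± 1.53 in HB, then to 25.8 ± 2.01 in HE1 and 23.6 ± 0.815 in HE2, and was highest in HP at 29.3 ± 2.81. Irf9 held between 13.7% and 15.5% at every stage. Irf4, Irf5, Irf7 and Irf8 together were a small remainder, of which Irf5 was the largest, at 4.43% in HP.

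**Figure D1:**
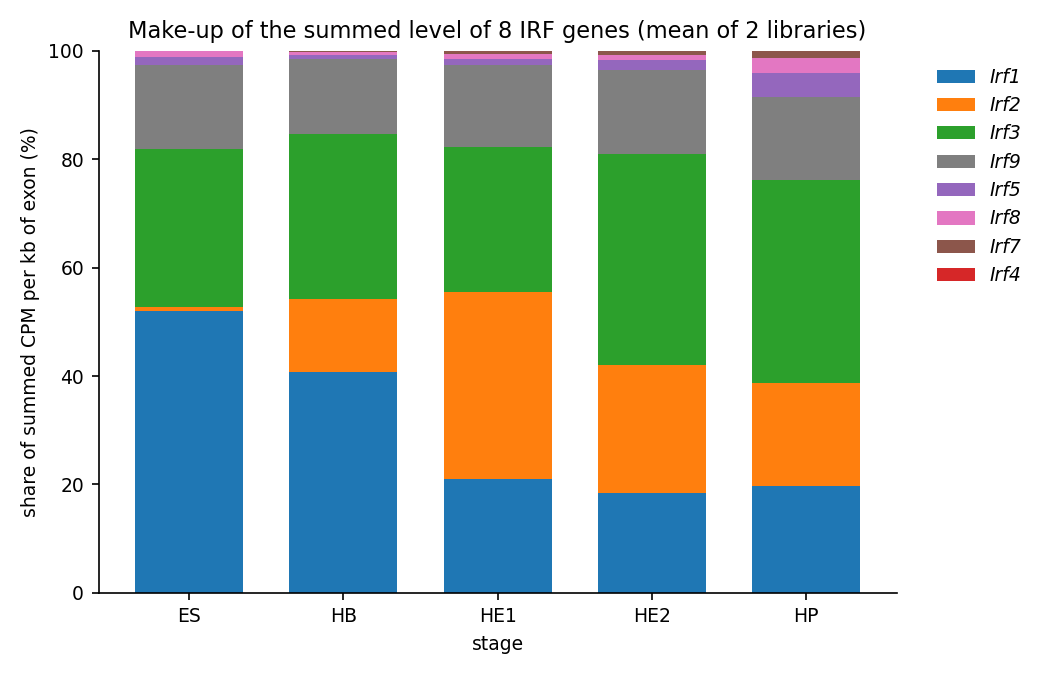
Share of each IRF gene in the summed level of the 8 genes (y axis, percent of summed CPM per kb of exon, mean of 2 libraries) by stage (x axis). The Irf1 block shrinks from 51.9% in ES to 21.1% in HE1 while the Irf2 block grows from 0.777% to 34.4%, and Irf4 is too low to be seen.

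Within a stage, some neighbours in this order lay within each other's spread. In HB, Irf9 was at 3.02 ± 0.309 CPM per kb (SD, n = 2) and Irf2 at 2.97 ± 0.00729. In HP, Irf1 was at 5.75 ± 0.614 and Irf2 at 5.56 ± 0.264, well below Irf3 at 11.03 ± 2.21. By stage mean per kb, Irf5 was above Irf8, Irf8 above Irf7 and Irf7 above Irf4 at every stage, but in the first HE1 library Irf7 was at 0.134 CPM per kb, Irf8 at 0.125 and Irf5 at 0.101, and with the length of the longest transcript Irf8 was above Irf5 in ES, HB and HE1.

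Changes between stages were tested with edgeR's quasi-likelihood test on all 10 libraries, with Benjamini-Hochberg adjustment over 22596 genes. Calls needed an adjusted p under 0.05 together with a 2-fold change or more. Of the 8 genes, 7 passed the filter on low counts and were tested, Irf4 being the exception. Of these, 6 differed among the 5 stages at an adjusted p under 0.05, as did 66.7% of all tested genes, and Irf9 did not (adjusted p = 0.0879).

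**Figure D2:**
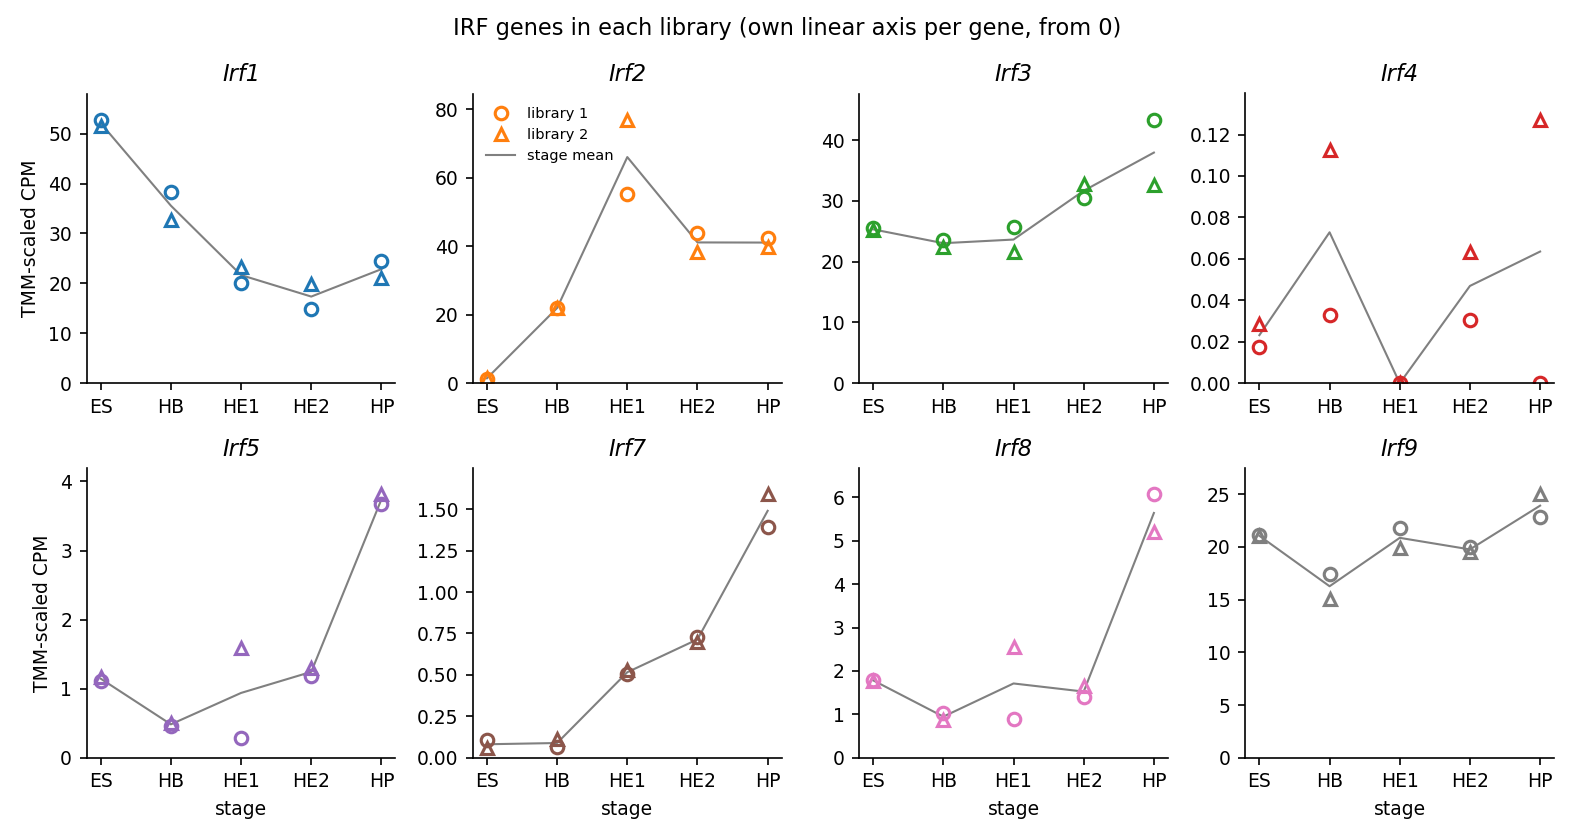
Level of each IRF gene in each library (y axis, TMM-scaled CPM on a linear axis from 0, its range set for each gene) by stage (x axis). Circles and triangles are the 2 libraries of a stage and the line joins stage means. Irf1 is highest in ES at 52.8 and 51.4, Irf2 in HE1 at 55.2 and 76.9, and Irf3, Irf5, Irf7, Irf8 and Irf9 have their highest stage mean in HP.

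Irf1 and Irf2, the activator and its competitor, moved in opposite directions from ES to HE1. Irf1 (chr11:53770014-53778374, plus strand) was at 52.8 and 51.4 CPM in ES, at 38.4 and 32.7 in HB, at 20.1 and 23.2 in HE1, at 14.9 and 19.9 in HE2, and at 24.6 and 21.1 in HP. Both ES libraries lay above all others, and both HB libraries above all later ones. From ES to HB it fell by 0.55 on the log2 scale (SE 0.18, adjusted p = 0.0329) and from HB to HE1 by 0.71 (SE 0.18, adjusted p = 0.0144), each less than 2-fold. The first of these did not pass 0.05 without any 1 of the 4 libraries (adjusted p 0.0809 to 0.224), with library totals without TMM (0.0795), no low-count filter (0.0561) or a replicate block (0.052), and the second did not without the first HB library (0.0772). From ES to HE2 the change was called, at -1.59 (SE 0.19, adjusted p = 5.7e-05). In the order of stage means HB and HP differed (adjusted p = 0.0226), while HP was not told apart from HE1 (adjusted p = 0.79) nor HE1 from HE2 (0.23).

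Irf2 (chr8:46739732-46847458, plus strand), the gene with the ISRE match above, was at 1.29 and 1.61 CPM in ES, at 21.9 and 22.0 in HB, at 55.2 and 76.9 in HE1, at 43.9 and 38.4 in HE2, and at 42.5 and 39.7 in HP. The stages ES, HB and HE1 did not overlap with any other, while HE2 and HP did overlap. The rise was 15.3-fold from ES to HB (log2 3.93, SE 0.22, adjusted p = 1.03e-06) and 3.01-fold from HB to HE1 (log2 1.59, SE 0.19, adjusted p = 0.000201), and ES and HE1 differed by 45.9-fold. From HE1 to HE2, Irf2 fell by 0.68 on the log2 scale (SE 0.18, adjusted p = 0.038), less than 2-fold. This p was 0.214 without the second HE1 library (log2 -0.43), 0.27 without the second HE2 library, 0.109 with only the 4 libraries compared and 0.06 with a replicate block. Between HE2 and HP the log2 difference was -0.00127 with a 95% interval from -0.41 to 0.40.

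The ratio of Irf2 to Irf1 within a library does not depend on how libraries are scaled. As counts per kb with 2 counts added, it was 0.0135 and 0.0174 in ES, at 0.308 and 0.362 in HB, at 1.47 and 1.78 in HE1, at 1.58 and 1.04 in HE2, and at 0.928 and 1.01 in HP. Irf1 exceeded Irf2 in all 4 libraries of ES and HB, and Irf2 exceeded Irf1 in all 4 of HE1 and HE2. On the log2 scale the stage means ran from -6.03 ± 0.25 (SD, n = 2) in ES to 0.69 ± 0.19 in HE1. The ratio differed among stages in an exact permutation test over the 945 ways to split 10 libraries into 5 pairs (two-sided p = 0.00317, 0.00635 after adjustment over 3 pairs of genes; the smallest p this design allows is 0.00106).

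**Figure D3:**
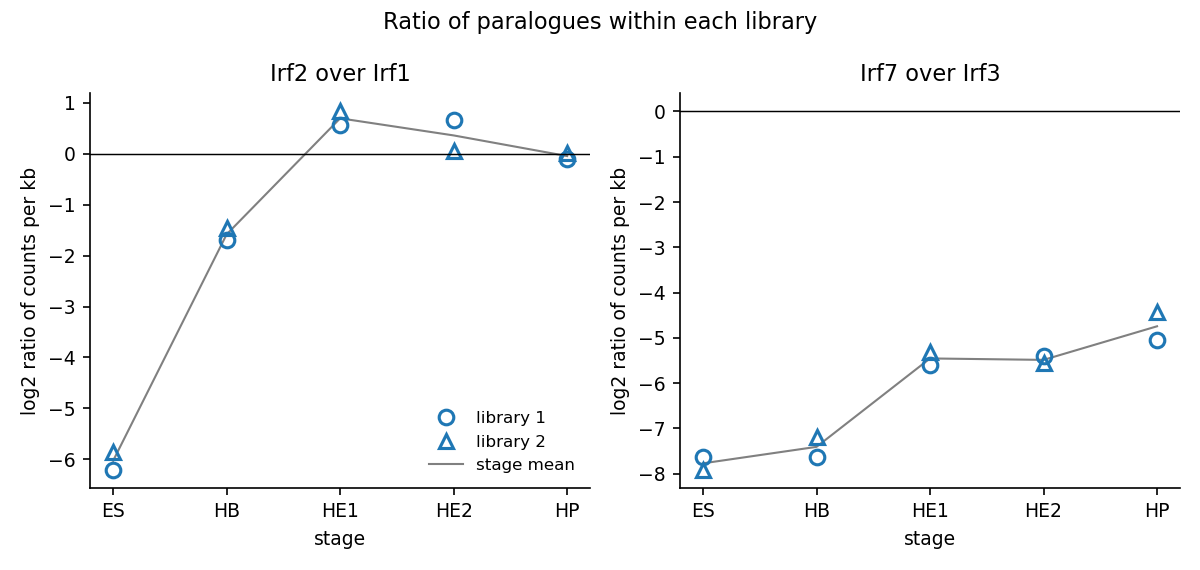
Log2 ratio of counts per kb of exon, with 2 counts added, within each library (y axis) by stage (x axis). The pairs are Irf2 over Irf1 and Irf7 over Irf3, where 0 means equal levels. Circles and triangles are the 2 libraries and the line joins stage means. Irf2 over Irf1 crosses 0 between HB and HE1, and Irf7 over Irf3 stays below 0, with a mean of -4.74 in HP.

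Irf3 and Irf7, the pair that turns on type I interferon genes, were far apart in level. Irf3 (chr7:44997648-45002848, plus strand), which most cells carry ready-made, was at 25.5 and 25.2 CPM in ES, at 23.6 and 22.5 in HB, at 25.8 and 21.5 in HE1, at 30.5 and 32.8 in HE2, and at 43.3 and 32.6 in HP. ES, HB and HE1 lay together, and both libraries of HE2 and HP above them. From HE1 to HP Irf3 rose by less than 2-fold (log2 0.68, SE 0.18, adjusted p = 0.0183), which did not pass 0.05 without the second HE1 library (0.107) or the first HP library (0.167). No neighbours in the order of its stage means differed at an adjusted p under 0.05.

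Irf7 (chr7:141262706-141266481, minus strand), which interferon strongly induces, was low throughout. Its counts were 6 and 2 in ES, at 2 and 4 in HB, at 12 and 16 in HE1, at 24 and 22 in HE2, and at 61 and 50 in HP. In CPM these are 0.106 and 0.0573, 0.0661 and 0.113, 0.504 and 0.528, 0.731 and 0.698, and 1.39 and 1.59, with no overlap from HB to HE1, HE2 and HP. A library at 3 counts, taken as the floor for counting error, has 0.0532 to 0.126 CPM, so that ES and HB were at or near the floor. Irf7 rose 5.53-fold from HB to HE1 (log2 2.47, SE 0.62, adjusted p = 0.0131) and 2.87-fold from HE1 to HP (log2 1.52, SE 0.50, adjusted p = 0.0482). Neither call held in full when a library was left out: the first was lost without either HB library (adjusted p = 0.0984 and 0.0662), and the second without any 1 of the 4 libraries (adjusted p 0.0753 to 0.138) and with DESeq2 (adjusted p = 0.113), library totals without TMM (0.0543), no low-count filter (0.0914), a replicate block (0.096) or only the 4 libraries compared (0.14). From ES to HP the log2 change was 4.07 (SE 0.58, adjusted p = 0.000209).

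Irf7 shares its locus with Phrf1 on the other strand, whose RNA was far more abundant, at 214 ± 2.70 CPM (SD, n = 2) in ES, 171 ± 14.4 in HE1 and 194 ± 5.90 in HP. Counting used the strand, and the part of Phrf1 reads in the Irf7 values was not tested. As counts per kb with 2 counts added, Irf7 stood at 0.00507 and 0.00414 of Irf3 in ES and at 0.0302 and 0.0462 in HP. In ES, with Irf7 at 6 and 2 counts, the 2 added counts raise this ratio. The ratio differed among stages (exact permutation test, two-sided p = 0.00423, adjusted p = 0.00635).

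Irf5 and Irf8, the genes of myeloid cells, had their highest levels in HP. Irf8 (chr8:120736358-120756694, plus strand), which steers progenitors towards monocytes and dendritic cells, was at 1.79 and 1.78 CPM in ES, at 1.02 and 0.873 in HB, at 0.883 and 2.54 in HE1, at 1.40 and 1.65 in HE2, and at 6.06 and 5.21 in HP. Both HP libraries lay above all others, and the HE1 libraries lay on either side of the ES and HE2 values. Irf8 rose 3.26-fold from HE1 to HP (log2 1.70, SE 0.46, adjusted p = 0.0227), a call lost without the first HP library (adjusted p = 0.103) and with only the 4 libraries compared (0.0585). The log2 change was 1.18 without the first HE1 library and 2.67 without the second. From ES to HP it rose 3.16-fold (adjusted p = 0.0108), a call lost without either ES library (adjusted p = 0.0694 and 0.0682). From HE2 to HP the log2 difference was 1.88 (SE 0.46), with an adjusted p of 0.177 and an unadjusted p of 0.00206.

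Irf5 (chr6:29526625-29541871, plus strand) was at 1.12 and 1.18 CPM in ES, at 0.463 and 0.507 in HB, at 0.294 and 1.58 in HE1, at 1.19 and 1.30 in HE2, and at 3.67 and 3.81 in HP. The HP libraries again lay above all others. From HE1 to HP it rose 3.89-fold (log2 1.96, SE 0.59, adjusted p = 0.0356), a call lost without the first or the second HP library (adjusted p = 0.109 and 0.0767), with total counts (0.0631) and with only the 4 libraries compared (0.0779). The log2 change of Irf5 over this step was 1.27 without the first HE1 library and 3.65 without the second. From ES to HP it rose 3.26-fold (adjusted p = 0.0295), a call lost without any 1 of those 4 libraries (adjusted p 0.0713 to 0.138). Tnpo3 on the other strand of this locus was at 153 ± 13.6 CPM (SD, n = 2) in HE1 and 174 ± 7.46 in HP.

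The 2 genes also shared the split between the HE1 libraries. In the second library Irf5 had 48 counts and Irf8 77, against 7 and 21 in the first. This is the library with more pluripotency RNA, and both genes were measured in ES cells too, at 1.15 ± 0.0415 and 1.78 ± 0.0091 CPM (SD, n = 2). In the second HE1 library they were at 1.58 and 2.54 CPM. The same library had more RNA of the 5 cardiac and smooth muscle markers (998 against 634 CPM) and the 4 neural markers (76.2 against 30.5). The part of these differences in the HE1 values was not tested. Without the first HE1 library both genes were called as higher in HE1 than in HB, with log2 changes of 1.65 for Irf5 and 1.38 for Irf8 (adjusted p = 0.0153 and 0.0192). Without the second, the log2 changes were -0.71 and -0.10.

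Markers of mature myeloid and lymphoid cells are given beside these genes. The 6 macrophage markers summed to 51.5 and 27.8 CPM in HE1, to 43.6 and 32.8 in the HE2 libraries and to 38.2 and 45.4 in HP, ranges that overlap, with 5 of 6 above 3 counts in both HP libraries and C1qa at 0 in every library. Csf1r, the receptor of macrophage growth factor, was at 0.378 and 1.29 CPM in HE1 and at 5.93 and 9.37 in HP. Lyz2 was at 1.05 and 1.98 CPM in HE1 and at 21.1 and 12.3 in HP, and Adgre1 (F4/80) at 0.21 and 0.23 and at 1.12 and 2.26. Mrc1, in contrast, was at 42.3 and 10.6 CPM in HE1 and at 1.12 and 7.59 in HP, and Cd68 at 7.52 and 13.7 and at 8.94 and 13.9. The 4 granulocyte markers summed to 7.06 and 3.00 CPM in HE1 and 249 and 113 in HP, almost all of it Mpo, with Elane at 0.114 CPM or less in HP and Ctsg at 0 in 9 of 10 libraries. The 5 lymphoid and plasmacytoid markers summed to 14.1 and 9.21 CPM in HE1 and 1.80 and 2.54 in HP, with Cd3e at 0 in HP. Almost all of this was Ebf1, at 14.1 and 8.85 CPM in HE1 and 1.55 and 2.19 in HP. Markers of other lineages also differed over this step. The 5 erythroid markers summed to 482 and 233 CPM in HE1 and to 4259 and 2284 in HP, and the 5 megakaryocyte markers to 101.98 and 70.6 and to 1671 and 1177, with 5 of 5 above 3 counts in HP for each list. The 6 endothelial markers went the other way, from 2999 and 1796 CPM to 438 and 496. The part of these cells in the rise of Irf5, Irf7 and Irf8 was not tested.

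Irf4 (chr13:30749226-30766976, plus strand), the lymphoid paralogue of Irf8, had 1 and 1 counts in ES, at 1 and 4 in HB, at 0 and 0 in HE1, at 1 and 2 in HE2, and at 0 and 4 in HP. Of the 10 libraries 8 were under the floor of 3 counts and no fold is given. At this depth Irf4 was not told apart from background at any stage, while Irf8 had 21 to 266 counts. For the ratio of Irf8 to Irf4 among stages the exact permutation test gave a two-sided p of 0.164, and with Irf4 at such counts it rests on the 2 counts added.

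Irf9 (chr14:55603571-55610030, plus strand), a partner of STAT2, was the steadiest member. It was at 21.1 and 20.99 CPM in ES, at 17.4 and 15.1 in HB, at 21.8 and 19.9 in HE1, at 20.01 and 19.5 in HE2, and at 22.8 and 25.0 in HP. HB was lowest and HP highest, and no neighbours in this order differed at an adjusted p under 0.05. The largest difference, from HB to HP, was 0.56 on the log2 scale (SE 0.16, adjusted p = 0.0236). A stretch of 123 bp, 2.28% of its exons, is shared with Rnf31 on the same strand, where read pairs count for both.

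Taking the comparisons one by one, ES to HB called 1 of the 7 tested genes, Irf2, as higher and 0 as lower, when 28.8% of all tested genes were called. HB to HE1 called 2 as higher, Irf2 and Irf7, and 0 as lower, against 20.9% of all genes. HE1 to HP called Irf5, Irf7 and Irf8 as higher and 0 as lower, against 16.5% in either direction and 5.35% higher. ES to HP called 4 as higher (Irf2, Irf5, Irf7, Irf8) and Irf1 as lower, against 38.7%. The shares for ES to HB and HB to HE1 lie near the background.

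These background shares themselves moved when a library was left out: for HB to HE1 the share was 11.5% without the second HB library, and for HE1 to HP it was 7.82% without the first HP library and 10.7% without the second HE1 library. For HE1 to HE2, at 8.64% with all libraries, it ran from 1.72% without the second HE2 library and 2.66% without the second HE1 library to 13.1% without the first HE2 library and 17.6% without the first HE1 library, and it was 5.59% to 5.68% without any 1 library of ES or HB.

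The gain of CD41 and the loss of TIE2 called 0 of the 7 genes. From HE1 to HE2 8.64% of all tested genes were called, and 1 IRF gene was higher (Irf3) and 1 lower (Irf2) at an unadjusted p under 0.05, beside 3549 and 4442 of the 22596 genes. From HE2 to HP the percentage of all genes called by edgeR was 0, and at an unadjusted p under 0.05 edgeR had 2 IRF genes higher (Irf5, Irf8) and 0 lower, beside 670 and 1113 of all genes. limma-voom called 0 of the 7 and 0.274% of all genes, and DESeq2 called 1, Irf8 (adjusted p = 0.0116), and 1.33% of all genes.

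**Figure D4:**
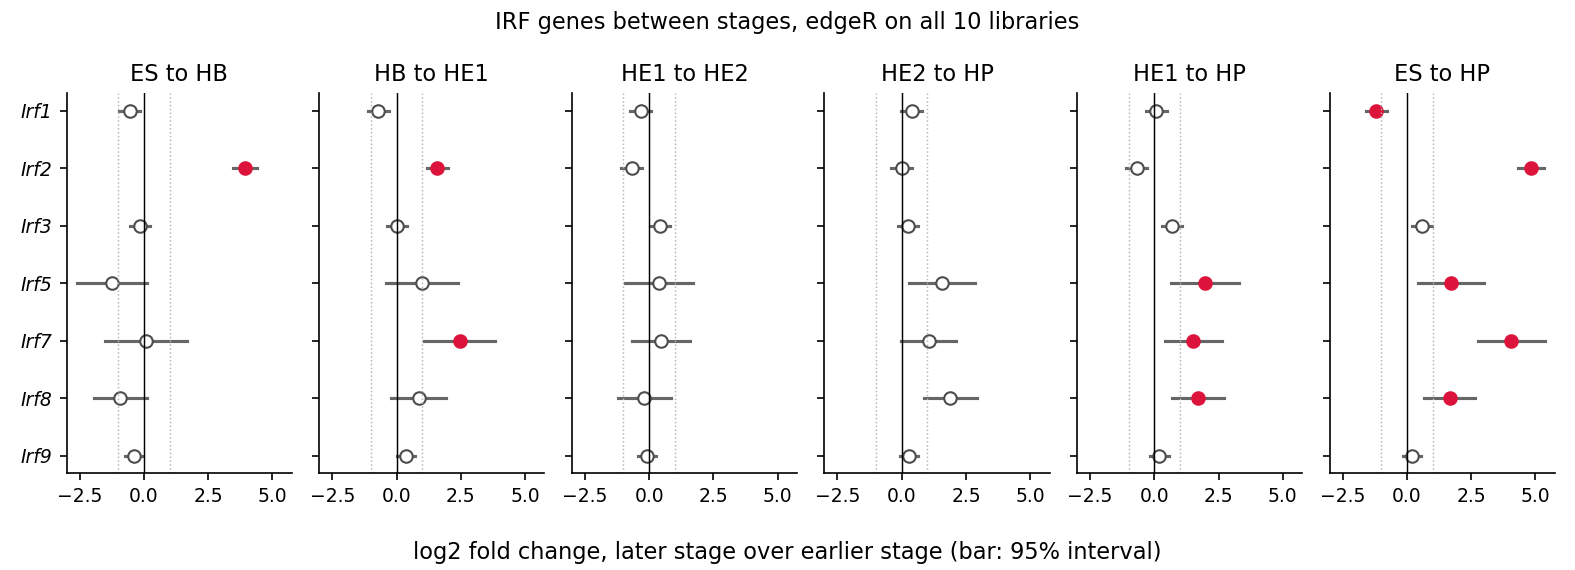
Log2 fold change (x axis) of the 7 tested IRF genes (y axis) in 6 comparisons of stages, with 95% intervals as bars. Filled red points were called by edgeR (adjusted p under 0.05 and at least 2-fold, the dotted lines), open points were not; Irf2 is called from ES to HB and from HB to HE1, and Irf5, Irf7 and Irf8 from HE1 to HP.

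The genes with the pattern most like each member were sought among 12234 or 12235 tested genes with a mean of at least 9 CPM in 1 stage, by Pearson's r of log2 CPM over the 10 libraries, which come in pairs per stage. Irf2 was followed closest by Lrrk1 (r = 0.998), Maml3 (0.996) and Itpr2 (0.995). Irf5 and Irf8 shared 2 of their 3 closest genes, Lpcat2 (r = 0.969 and 0.939) and Unc93b1 (0.958 and 0.957), the latter a chaperone of the endosomal Toll-like receptors. The third was Gm44822 (0.934) for Irf5 and Nfix (0.901) for Irf8. Irf7 had Fech (0.991), Tbc1d2b (0.989) and Slc7a11 (0.989), Irf1 had Mlxipl (0.980), Tmem268 (0.976) and Vill (0.974), Irf3 had Cdc25b (0.971), Poc1a (0.967) and Lacc1 (0.967), and Irf9 had Sms-ps (0.945), Sap25 (0.929) and Vps13d (0.924). By Spearman's rho at most 1 of the 3 genes stayed the same for any member. Among the members themselves, Irf5 and Irf8 were most alike (r = 0.959) and Irf1 and Irf2 most opposed (r = -0.866).

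Interferon genes, among them Ifnb1 and the Ifna genes on which IRF3 and IRF7 act, were at or near 0. Of 9 interferon genes (Ifnb1, 3 Ifna genes, Ifng, Ifnk, Ifne and 2 Ifnl genes), Ifnb1 reached 5 counts in a library, Ifna4 and Ifne 1 and the other 6 had 0 in all 10 libraries, so that 0 of the 9 passed the filter. Of 14 genes for the receptors and JAK-STAT proteins that pass on the interferon signal, 4 rose and 2 fell from ES to HB, when 11.5% of all tested genes were called higher and 17.3% lower, with a median log2 change of 0.63 against 0.00 over all tested genes. Ifnar2, a chain of the type I receptor, rose from 5.29 to 15.2 CPM (log2 1.52, adjusted p = 0.000201), Ifngr2, of the interferon-gamma receptor, from 4.42 to 19.1 (log2 2.11) and the kinase Jak2 from 13.6 to 52.7 (log2 1.96), while Ifnlr1, of the type III receptor, fell from 10.6 to 0.899 (log2 -3.56). Between HE1 and HP 2 rose and 3 fell, against 5.35% and 11.2% of all genes, with 1 and 1 without the second HE1 library and 2 and 0 without the first HP library. Among them, the phosphatase gene Ptpn6 rose from 13.3 to 116 CPM (log2 3.12) and the feedback inhibitor Socs3 fell from 46.9 to 18.9 (log2 -1.31).

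Of 22 genes for nucleic acid sensors and the adaptors that lead to IRF3, IRF5 and IRF7, 20 were tested, and 9 rose and 0 fell from HB to HE1, against 12.7% and 8.19% of all genes, with a median log2 change of 0.73 against 0.04 over all genes. Tlr4 rose from 1.41 to 35.4 CPM (log2 4.65, adjusted p = 0.000227), Tlr3 from 2.21 to 11.7 (log2 2.40) and the RNA sensor Rigi, named Ddx58 in the files, from 2.25 to 13.3 (log2 2.57), having fallen from 26.6 in ES. Tlr4 was at 46.0 and 24.7 CPM in the HE1 libraries and Tlr3 at 15.5 and 7.96, higher in the library with more endothelial RNA. The 6 endothelial markers went from 246 and 217 CPM in HB to 2999 and 1796 in HE1, and their part in this rise was not tested. Between HE1 and HP 6 rose and 2 fell, against 5.35% and 11.2%, with 4 and 3 without the second HE1 library and 3 and 0 without the first HP library. Of the 2 lower genes, Tlr4 fell by 2.52 and Tlr3 fell by 1.83 on the log2 scale, while the RNA sensor Ifih1 rose from 3.61 to 11.5 CPM (log2 1.67) and Unc93b1 from 4.36 to 12.5 (log2 1.51). Myd88, the adaptor of most Toll-like receptors, rose from 15.3 to 32.3 CPM from HE1 to HE2 (log2 1.08, adjusted p = 0.0244).

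Interferon-stimulated genes, which carry ISRE or GAS elements, moved in both directions. Of 45 genes, 4 rose and 17 fell from ES to HB (median log2 change -0.82), against 11.5% and 17.3% of all genes. Without any 1 library of ES or HB both counts were smaller, as were the shares of all genes, with medians from -0.82 to -0.69. From HB to HE1 13 rose and 5 fell (median 0.75), against 12.7% and 8.19%, and from HE1 to HP 13 rose and 1 fell (median 0.63, against -0.02 over all genes), against 5.35% and 11.2%. These counts moved with the HE1 libraries, in which the list summed to 697 and 498 CPM, against 502 and 531 in HB, and Trim30a was at 8.83 and 1.45 CPM. From HB to HE1 9 rose and 5 fell without the first HE1 library (median 0.12) and 17 rose and 3 fell without the second, with 7 and 3 without the second HB library. From HE1 to HP 20 rose and 1 fell without the first HE1 library, 7 and 0 without the second, and 5 and 1 without the first HP library. The first HE1 library is the one with more endothelial and less pluripotency RNA, and the part of this difference was not tested. Between ES and HP 19 rose and 7 fell (median 0.32), when 38.7% of all genes were called in either direction. ES cells had high levels of Ifitm1, a membrane protein that restricts virus entry, which fell from 138 CPM in ES to 18.2 in HP (log2 -2.92, adjusted p = 0.000247). Its lowest mean was 3.18 CPM in HE1, from which it rose to 10.6 in HE2 (log2 1.70) and to 18.2 in HP (log2 2.49). On the log2 scale Ifitm3 fell by 2.09 and Bst2 fell by 2.14 from ES to HB. Usp18, an inhibitor of interferon receptor signalling, was near the floor in ES, at 0.0839 CPM, and at 16.9 in HB (log2 7.69), fell to 0.856 in HE1 (log2 -4.35) and was at 9.92 in HP (log2 3.58 over HE1). Over the step from HE1 to HP the GTPase gene Igtp rose from 2.45 to 9.47 CPM (log2 1.96, adjusted p = 0.00148), and from ES to HP Trim30a rose from 0.444 to 13.3 (log2 4.92).

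**Figure D5:**
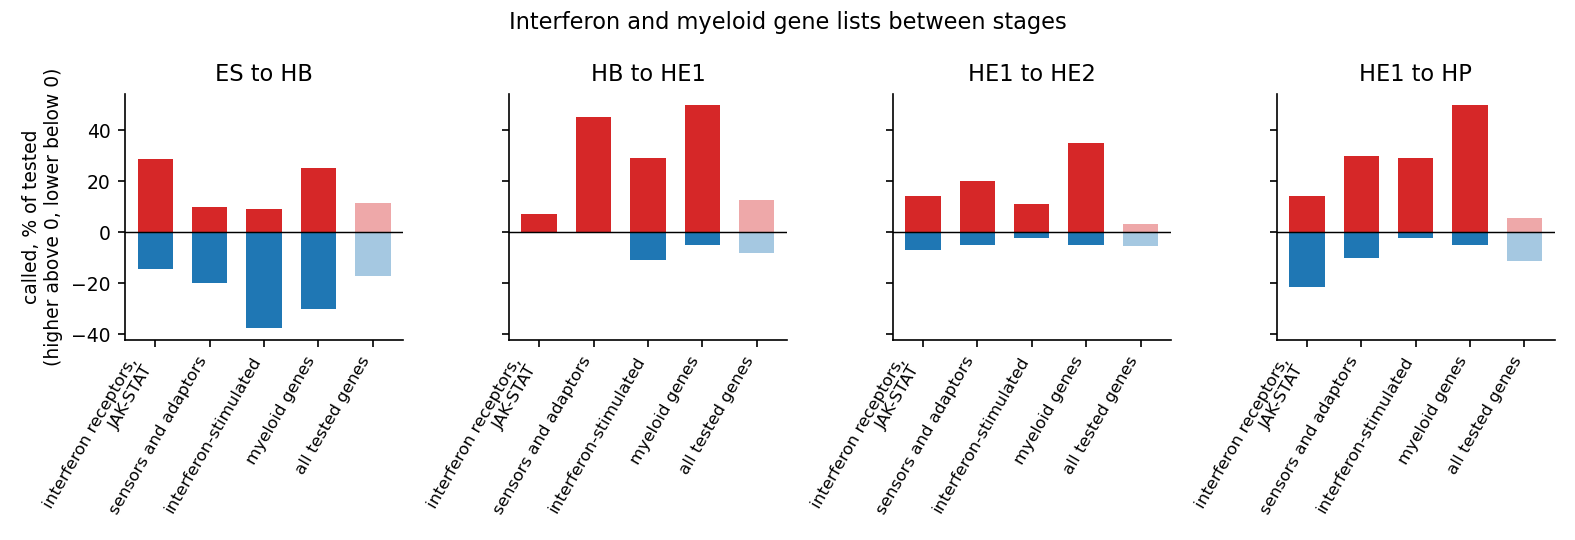
Percentage of tested genes called (y axis, higher above 0 and lower below 0) for 4 gene lists and for all tested genes (pale bars) in 4 comparisons of stages. Interferon-stimulated genes have 17 of 45 lower from ES to HB and 13 of 45 higher from HE1 to HP, and myeloid genes have 10 of 20 higher from HE1 to HP.

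Of 12 ETS, AP-1 and other partner factors of IRF4 and IRF8, 11 were tested, and 2 rose and 0 fell from HE1 to HE2, against 3.26% and 5.38% of all genes (median log2 change -0.14). These were Spi1, which encodes PU.1, from 2.16 to 46.1 CPM (log2 4.40, adjusted p = 0.000692) and Ikzf1, which encodes Ikaros, from 13.8 to 188 (log2 3.77). The HE2 libraries stood apart for both, with Spi1 at 26.3 and 65.9 CPM and Ikzf1 at 115 and 261. Over the same step Irf8 had a log2 change of -0.18 with a 95% interval from -1.22 to 0.85, and the difference between these genes was not tested. From HE1 to HP 2 of the 11 rose and 2 fell, against 5.35% and 11.2% of all genes. From ES to HP 3 rose and 3 fell, against 16.7% and 21.9%. Prdm1, a repressor that acts with IRF4 in lymphoid cells, fell from 43.3 CPM in ES to 3.28 in HP (log2 -3.73).

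Of 21 myeloid genes with known IRF8 or PU.1 binding, 20 were tested, and 10 rose and 1 fell from HB to HE1 (median log2 change 2.10, against 0.04 over all genes), when 12.7% and 8.19% of all genes were called and neither Irf5 nor Irf8 was. Among those called, only Naip2, Naip5 and Ctsc had a mean of at least 9 CPM in 1 of the 2 stages. Ctsc was the gene that fell, from 119 to 12.2 CPM (log2 -3.28). Naip2 was at 19.3 and 9.37 CPM in the HE1 libraries. The 6 endothelial markers went from 246 and 217 CPM in HB to 2999 and 1796 in HE1, and their part in this rise was not tested. A further comparison, HE1 to HE2, had 7 that rose and 1 that fell (median log2 change 0.90, against -0.08 over all genes), when 3.26% and 5.38% of all genes were called. Between HE1 and HP 10 rose and 1 fell (median 1.87, against -0.02), against 5.35% and 11.2%. Csf2rb, a cytokine receptor chain, rose from 7.59 to 79.3 CPM from HE1 to HE2 (log2 3.39, adjusted p = 0.000598), and Lyz2, lysozyme, from 1.52 to 13.8 (log2 3.17). From HE1 to HP the NADPH oxidase subunit gene Ncf1 rose from 2.05 to 41.3 CPM (log2 4.33) and the adaptor gene Tyrobp from 0.150 to 12.4 (log2 6.35). From ES to HP the genes for IRF2 binding partners split, Irf2bp2 rising from 114 to 250 CPM (log2 1.13) and Irf2bpl falling from 127 to 29.0 (log2 -2.13).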

How the data were processed

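Nuclear RNA-seq libraries of 5 stages, 2 per stage, were analysed. After trimming, the authors used HISAT2 (v2.2.1) to align reads to mm10 and featureCounts (v2.0.1) to assign read pairs to exons of the Ensembl 102 annotation by strand, counting a pair for every gene it touched. The deposited counts are not normalized. The authors also deposited 1 expression score per gene and stage, a CPM averaged over libraries, used here to find the members and as an alternative level. The 8 genes, 7 gene lists and 12 marker lists were chosen with earlier results of these data known.

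Counts were filtered with filterByExpr on stage, scaled with TMM and tested in R (v4.3.3) by edgeR (v4.0.16), with stage as the only term and 5 residual degrees of freedom. Lengths are the exon lengths of the count tables. A promoter window is from RefSeq. From each list, up to 4 genes per comparison were eligible to be named, those with the largest called changes and at least 9 CPM in 1 of the 2 stages. The code was tested on simulated data. Alternatives were limma-voom (v3.58.1), DESeq2 (v1.42.0), total counts, no filter, 4 libraries only, a replicate term, a 1.5-fold threshold, library sizes without the 20 top genes, and each library left out. Floors of 3 counts cover counting error only. Protein sequences were not used here. Some genes of the lists are not reported here by name.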

Additional observations from a re-analysis of the deposited data

How the results depend on the processing

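That 6 of the 7 tested genes differed among stages held for 6 genes under limma-voom, DESeq2, total counts, no filter and library sizes without the 20 top genes, and for 5 to 6 with a library left out, the 5 being without the first HP library. The number of genes called from ES to HB was 2 with only the 4 libraries compared (Irf5 as lower in HB), and from HE1 to HE2 it was 1 at 1.5-fold (Irf2). From HE2 to HP it was 1 with DESeq2 and 1 with no filter, Irf8 in both. From HE1 to HP it was 1 with total counts, 0 with only the 4 libraries compared and 5 at 1.5-fold. With a library left out it ranged from 1 to 4 for HB to HE1 (4 without the first HE1 library, 1 without either HB library), from 0 to 2 for HE1 to HP (0 without the first HP library, 1 without the second) and from 3 to 4 for ES to HP (3 without either ES library). In such fits the lone library is assumed to vary like the other stages. The cause was not tested.

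Log2 changes turned direction only where they were small or where a library decided them. For Irf3 from HB to HE1 the change was -0.00692 with library sizes without the 20 top genes and ranged from -0.14 to 0.17 with a library left out. For Irf2 from HE2 to HP it was 0.00258 with limma-voom, 0.0575 with total counts, 0.00149 with library sizes without the 20 top genes, and between -0.0912 and 0.0958 with a library left out. Leaving out a library gave ranges from -0.35 to 0.64 for Irf7 from ES to HB, from -0.71 to 1.65 for Irf5 and -0.10 to 1.38 for Irf8 from HB to HE1, from -0.32 to 2.06 for Irf5, -0.71 to 0.78 for Irf8 and -0.14 to 0.012 for Irf9 from HE1 to HE2, and from -0.0194 to 0.20 for Irf1 from HE1 to HP.

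The exact p of Irf8 over Irf4 ranged from 0.037 (without the second HP library) to 0.414. The p of the other 2 ratios stayed under 0.05 under all alternatives, at most 0.00635 for Irf2 over Irf1 and 0.0127 for Irf7 over Irf3. Replicate numbers did not pair the libraries: deviations of same-numbered libraries correlated between -0.316 and 0.213. With a replicate block 2 genes were called from HE1 to HP in place of 3, the one lost being Irf7 (adjusted p = 0.096), and 6 differed among stages. The order of genes within a stage depends on the length used: with the longest transcript, Irf5 and Irf8 changed places in ES, HB and HE1, and Irf2 and Irf9 in HB.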
